A study of Sus scrofa with 9 samples.

Results

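The genes described here are those of programmed cell death and of the tumour necrosis factor (TNF) family, with the death ligand FASLG, in testicular biopsies of boars. They were chosen by gene name: every sense probe of the array whose name fell into the BCL2, caspase, BIRC, TNF, TNFSF, TNFRSF or TNFAIP families or was BAX, BID, MCL1, FAS, FASLG, FADD, APAF1, CYCS, XIAP or DIABLO. The names gave 37 genes of 49795 gene names and 84 probes of 60889 non-control probes. One probe per gene was taken, the brightest in the authors' table of normalized values, which held a probe for 33 of the 37 genes. The other 4 genes (BCL2L10, TNFRSF8, TNFSF4 and TNFSF18) had no probe well above background on any array, and all 33 with a probe passed the intensity filter and were tested. BAK1, BAD, BCL2, CASP9 and TNFRSF10 were not among the gene names used here.

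Expression was measured on 9 single-colour 60K arrays, 3 in each of 3 groups. The control group came from fertile boars with a normal karyotype (2n=38,XY) and normal semen, and the methods name 3 such boars without saying which array holds which, and the study also speaks of a pool, so that 1 array may hold RNA of more than 1 boar. The t(1;14) group came from 1 crossbred Landrace × Duroc boar that carried a balanced reciprocal translocation between chromosomes 1 and 14 and was labelled oligo-astheno-teratospermic. The oligospermic group had a normal karyotype and a low sperm count, and was also taken from 1 animal. Tests therefore compared 3 arrays with 3 arrays, not animals, and a difference between 2 boars cannot be told apart from an effect of the translocation or of the semen phenotype. In a whole biopsy, fewer cells of a type and less RNA per cell cannot be told apart.

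Apoptosis is executed by caspases, which are switched on along 2 routes. In the extrinsic route, death ligands such as FASLG or TNF bind receptors such as FAS on a neighbouring cell, and the adaptor FADD brings the initiator caspases 8 and 10 to the receptor. In the intrinsic route, BAX opens the outer mitochondrial membrane, restrained by MCL1 and BCL2L1, and released cytochrome c (CYCS) assembles with APAF1. Germ cells are lost by apoptosis in large numbers in normal spermatogenesis, and FASLG is long known as a transcript of the testis as well as of cytotoxic lymphocytes.

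Between 37087 and 40632 probes were well above background on each array. Each of the 3 slides held 1 array of each group. The median SD among the 3 arrays of a group was 0.24 on the log2 scale in control, 0.13 in t(1;14) and 0.18 in oligospermic testis over all 41105 tested probes. Values below are quantile-normalized log2 signals. A difference was called past the test at an adjusted p of at most 0.01 (limma, Benjamini-Hochberg over all tested probes), and differential when it also reached a log2 fold change of 2 in size.

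In t(1;14) against control testis, 12 of the 33 genes were past the test, 36.4% of them, where 38.5% of all tested probes were. Higher were 7 (TNFRSF12A, TNFAIP3, CYCS, FADD, CASP8, MCL1 and XIAP) and lower were 5 (FASLG, TNFAIP6, TNFSF13B, BCL2L1 and BIRC5). Over all probes, 20.0% were past the test and higher and 18.5% were past it and lower. FASLG, TNFAIP3, TNFAIP6 and TNFRSF12A were differential, 4 genes or 12.1% of the 33, against 5.82% of all tested probes. TNFAIP3 counts here although it passed the filter on low values through its t(1;14) arrays only and, with dim control arrays at the lowest signal well above background, stays under the fold limit. At a log2 fold change of 1 in size, 8 genes were called, where 20.5% of all probes were. The median log2 fold change was 0.16 over the 33 genes and 0.13 over all probes. The 2 groups of arrays did not overlap for 18 of the 33 genes (54.5%), and for 61.6% of all probes. The shares past the test, at a log2 fold change of 1 and without overlap lie near those of all probes, so these counts are no result about the family. The differential share rests on 4 genes and was not tested, and with a normexp background 0 members were differential, where 1006 of the 41105 probes were. The values of single genes follow.

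In oligospermic against control testis, limma placed 0 of the 33 genes past the test, where 0.224% of all probes were, and 0 were differential, where 0.112% were. At an unadjusted p under 0.05 there were 4 genes, among them BCL2L11, BIRC5 and FASLG, where 13.0% of all probes passed that limit. The arrays did not overlap for 7 genes (21.2%), against 15.5% of all probes. BCL2L11, BIRC5, TNFSF10 and TNFSF13B were among the 5 that read higher on every oligospermic array, and BID and FASLG read lower, where 7.87% of all probes were higher without overlap and 7.66% lower. None of the 69 tested probes of these genes was past the test.

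In t(1;14) against oligospermic testis, 13 of 33 genes were past the test, where 42.7% of all probes were. Higher were 9 (the 7 above with BCL2L13 and BID) and lower were 4 (FASLG, TNFAIP6, TNFSF13B and BIRC5), where 22.8% and 19.9% of all probes were. TNFAIP3, TNFRSF12A and FASLG were differential, 3 genes, where 6.53% of all probes were. No oligospermic array read TNFAIP3 well above background, and its bound of at least 3.97-fold stays under the fold limit. At a log2 fold change of 1 in size 8 genes were called, where 23.4% of all probes were. The arrays did not overlap for 22 genes (66.7%), and for 70.4% of all probes. Both comparisons with t(1;14) use the same 3 t(1;14) arrays, and both comparisons against control use the same 3 control arrays.

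**Figure D1:**
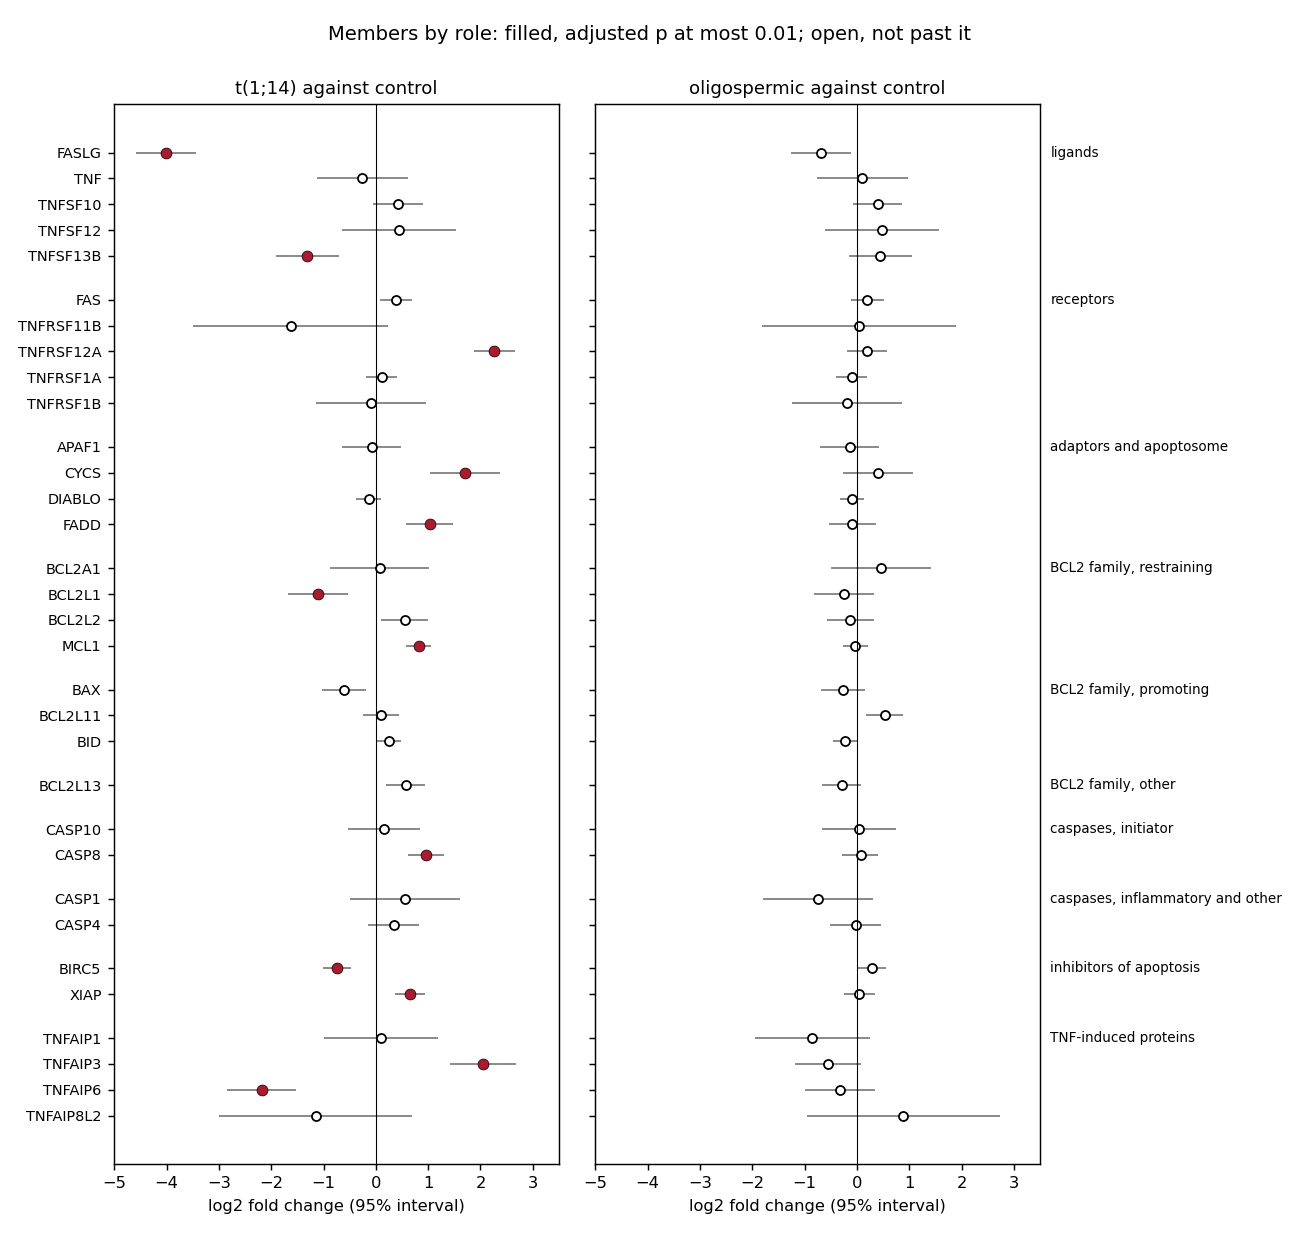
Log2 fold change of 32 of the 33 genes with its 95% interval, grouped by role, for t(1;14) against control (left) and oligospermic against control (right). Filled points have an adjusted p of at most 0.01. FASLG lies farthest from 0 on the left at -4.01, and every point on the right is open.

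FASLG, the membrane-bound ligand that triggers FAS, showed the largest difference of the 33 genes in both comparisons with t(1;14). It is read by 1 probe carrying its name. This 60-base probe is shown because the FASLG result rests on it, with the 33 bases in capitals that a second, partly overlapping probe also carries:
FASLG: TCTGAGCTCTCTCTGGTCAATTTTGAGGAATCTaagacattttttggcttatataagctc
RefSeq places the gene on chromosome 9, outside both translocated chromosomes. The control arrays read 7.17, 6.11 and 6.58 on this probe. The oligospermic arrays read 6.01, 5.79 and 6.01, and the t(1;14) arrays read 2.79, 2.38 and 2.67. All control and oligospermic arrays were well above background and no t(1;14) array was, so the t(1;14) boar gives only an upper limit. On this probe FASLG fell by 4.01 on the log2 scale in t(1;14) against control (SE 0.25, limma adjusted p 8.3e-06), at least 8.06-fold lower. Against the oligospermic boar FASLG fell by 3.32 on this probe (adjusted p 1.7e-05), at least 5.02-fold lower. Within each slide the t(1;14) array was below the control array, by differences of -4.79, -3.44 and -3.79.

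The oligospermic arrays were all below the control arrays for FASLG without overlap, but the log2 fold change of -0.68 (SE 0.25) was not past the test (adjusted p 0.285). The lowest control array, 6.11, lay just above the highest oligospermic arrays, at 6.01.

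Other spots on the array carry FASLG sequence under an accession in place of a gene name. One has the same 60 bases and the other shares the 33 bases in capitals. They read the same RNA on the same arrays and are repeat readings, not replicates. The spot with the same 60 bases read 7.17, 6.39 and 6.72 in control testis, 2.52, 1.53 and 2.01 in t(1;14) and 6.14, 5.75 and 6.12 in oligospermic testis. Its log2 fold change was -4.74 against control (adjusted p 7.2e-06), again with no t(1;14) array well above background, so that only a bound of at least 8.90-fold lower can be given. The spot that shares 33 bases gave -2.63 against control and -1.90 against oligospermic testis (limma adjusted p 3.1e-05 and 1.7e-04). The second of these is under the fold limit. This spot read 4.69, 3.95 and 4.22 in t(1;14), with 2 of the 3 arrays well above background. All 3 spots put FASLG lower in t(1;14), and on both spots with the full 60 bases the size of the fall is known only as a bound. The spot that shares 33 bases fell by less than these bounds. In oligospermic against control testis the 3 spots gave -0.68, -0.76 and -0.73, none past the test.

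**Figure D2:**
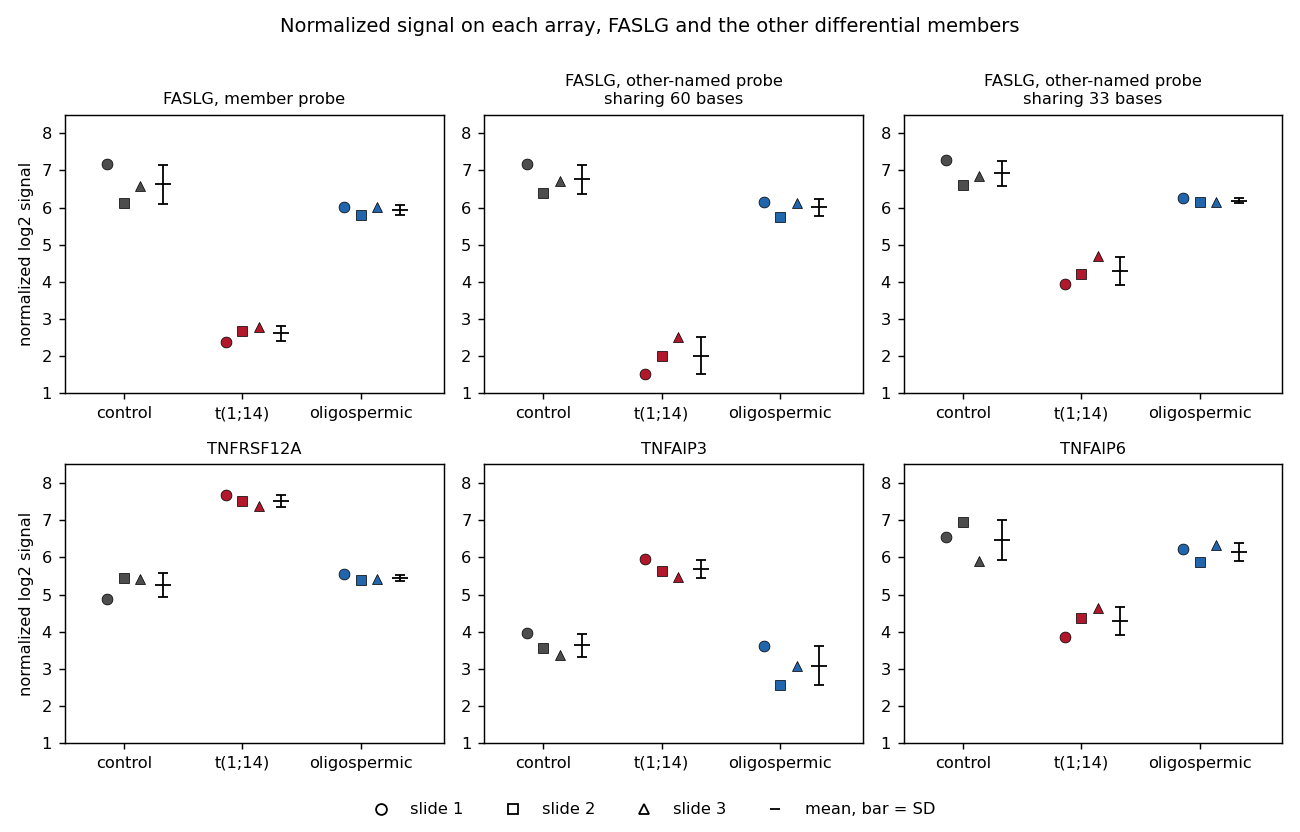
Normalized log2 signal on each array for the 3 spots with FASLG sequence (top) and for TNFRSF12A, TNFAIP3 and TNFAIP6 (bottom); symbols give the slide, and the line and bar give mean and SD of 3 arrays. The t(1;14) arrays stand apart from both other groups in every panel, below them for FASLG and TNFAIP6 and above them for TNFRSF12A and TNFAIP3.

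Of the 4 other ligands, 1 also fell. TNFSF13B (BAFF, a survival factor of B cells) read 5.48, 5.63 and 5.17 in control, 4.11, 4.64 and 3.60 in t(1;14) and 5.75, 5.73 and 6.16 in oligospermic testis. All t(1;14) arrays lay below the others. It fell by 1.31 against control (SE 0.26, limma adjusted p 0.00328) and by 1.76 against oligospermic testis (adjusted p 0.00064). Of its t(1;14) arrays 2 were well above background, and its second probe was not tested. A spot with the 60 bases of that second probe read higher in t(1;14), but was well above background on no array. TNF itself read 7.01, 7.99 and 7.91 in control, 7.60, 6.71 and 7.84 in t(1;14) and 7.24, 7.87 and 8.11 in oligospermic testis, with overlapping groups and a log2 fold change of -0.26 (95% interval -1.12 to 0.61). In all 3 groups the lowest TNF array was the one on the first slide, and the within-slide differences between t(1;14) and control were -0.31, -0.15 and -0.31. TNFSF10 (TRAIL) and TNFSF12 (TWEAK) had log2 fold changes of 0.43 and 0.45, neither past the test.

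Among the receptors, TNFRSF12A (Fn14, the receptor of TWEAK) was the member that rose most in t(1;14) against control. Control arrays read 4.88, 5.44 and 5.43, oligospermic arrays 5.55, 5.39 and 5.41, and t(1;14) arrays 7.37, 7.67 and 7.51. Both other groups overlapped and lay well below t(1;14). The rise was 2.26 on the log2 scale, 4.80-fold, against control (SE 0.17, limma adjusted p 1.7e-05) and 2.06 against oligospermic testis (adjusted p 2.5e-05). A spot under an accession that shares 48 bases with this probe gave 2.44 against control (adjusted p 5.4e-05). The ligand of this receptor, TNFSF12, overlapped between the groups (10.32, 11.65 and 11.61 in control against 11.96, 11.22 and 11.75 in t(1;14)).

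FAS, the receptor of FASLG, lies on chromosome 14 in RefSeq, one of the 2 translocated chromosomes. It read 4.43, 4.56 and 4.22 in control, 4.98, 4.79 and 4.60 in t(1;14) and 4.49, 4.68 and 4.65 in oligospermic testis. Its t(1;14) arrays were just above the control arrays without overlap, but the log2 fold change of 0.39 (SE 0.14) was not past the test (limma adjusted p 0.044). A spot with the same 60 bases gave 0.34 (adjusted p 0.134). So the ligand of this pair was lower by a wide margin, and for its receptor no difference passed the test. The other members on the translocated chromosomes were DIABLO (chromosome 14), with a log2 fold change of -0.14, TNFAIP3 (chromosome 1), which rose, and BCL2L10 and the probe named TNFRSF8 (both chromosome 1), not well above background on any array. The accession of the probe named TNFRSF8 is that of TNFSF8 in RefSeq.

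TNFRSF1A, the main TNF receptor, gave 0.11 on its brightest probe and was not past the test. That probe shares runs of 20 bases with 28 probes of other gene names, 11 of them on the opposite strand. A second TNFRSF1A probe rose by 0.70 (adjusted p 0.00646). TNFRSF11B (osteoprotegerin, a decoy receptor) gave -1.63 with an interval from -3.49 to 0.24. On its probe the first slide read 4.29 in control, 5.14 in t(1;14) and 4.14 in oligospermic testis. Slides 2 and 3 read 6.52 and 6.03 in control, 3.44 and 3.39 in t(1;14) and 6.42 and 6.41 in oligospermic testis, and 1 of the 3 t(1;14) arrays was well above background. The within-slide differences were thus 0.85, -3.08 and -2.65, of opposite sign on the first slide.

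The adaptor FADD, which links death receptors to caspases 8 and 10, read 11.03, 10.25 and 10.64 in control, 11.68, 11.65 and 11.68 in t(1;14) and 10.72, 10.62 and 10.33 in oligospermic testis. All t(1;14) arrays were above all others. It rose by 1.03 against control (SE 0.20, limma adjusted p 0.00254) and by 1.12 against oligospermic testis (adjusted p 0.00151). Of its 3 probes 2 were past the test, both higher. CASP8 rose by 0.96 (SE 0.15, adjusted p 0.00099), from 6.31, 5.79 and 6.07 in control to 7.11, 6.82 and 7.10 in t(1;14). The oligospermic arrays, at 6.16, 6.16 and 6.05, lay within the control range. Of 3 CASP8 probes 2 rose (0.96 and 0.93), and the third, well above background on 2 of the t(1;14) arrays, gave 0.00.

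CASP10, the other initiator caspase of death receptors, did not change alike on all its probes. Its 6 probes fall into 2 kinds of sequence, shown because the call depends on which is read. Capitals mark bases that lie in a run of at least 20 shared with probes of other gene names:
CASP10 probe a: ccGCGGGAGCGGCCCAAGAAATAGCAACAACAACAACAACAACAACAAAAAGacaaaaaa
CASP10 probe b: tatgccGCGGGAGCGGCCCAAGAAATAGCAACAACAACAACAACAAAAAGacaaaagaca
CASP10 probe c: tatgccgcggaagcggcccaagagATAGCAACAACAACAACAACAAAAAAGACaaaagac
CASP10 probe d: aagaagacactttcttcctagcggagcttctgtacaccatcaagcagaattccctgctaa
CASP10 probe e: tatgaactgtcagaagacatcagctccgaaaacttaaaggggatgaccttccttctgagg
CASP10 probe f: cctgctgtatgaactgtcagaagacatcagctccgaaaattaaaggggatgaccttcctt
Probes a, b and c carry a run of CAA repeats and share a 20-base run with 13, 12 and 9 probes of other gene names. Probes d, e and f share none. Probe a, the brightest and so the one taken by the rule, read 14.86, 15.64 and 15.66 in control and 15.65, 15.22 and 15.76 in t(1;14), a log2 fold change of 0.16 (adjusted p 0.69). Probes b and c gave 0.13 and 0.32. The 12 tested probes of other names that share a run with probe a had a median of 0.36, and 0 of them were past the test.

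On probe d the control arrays read 6.21, 5.60 and 5.87, the oligospermic arrays 5.54, 5.10 and 5.40 and the t(1;14) arrays 3.46, 3.09 and 3.76. It fell by 2.46 (SE 0.22, limma adjusted p 4.4e-05), with 1 of the 3 t(1;14) arrays well above background. Probe e fell by 1.82 (adjusted p 4.4e-05) and probe f by 1.86 (adjusted p 8.0e-05). The t(1;14) arrays were below both other groups on each of these 3 probes, and for probe f none was well above background, so that it was at least 3.63-fold lower. Against the oligospermic boar the 3 probes fell by 1.91, 1.31 and 1.19. CASP10 was thus not past the test on the brightest probe and fell on the 3 probes without shared sequence, which were not used in the counts above. Probes e and f overlap by 32 bases and are not independent readings.

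Cytochrome c (CYCS) has 12 tested probes, more than any other member. Of these, 11 had a positive log2 fold change in t(1;14) against control and 8 were past the test, all 8 higher. The brightest probe read 10.87, 9.72 and 10.93 in control, 12.19, 12.18 and 12.27 in t(1;14) and 11.00, 11.01 and 10.72 in oligospermic testis. It rose by 1.71 (SE 0.29, limma adjusted p 0.00153) against control and by 1.30 (adjusted p 0.00541) against oligospermic testis. The 12 probes ranged from -0.09 to 1.71, and the chosen probe is at the top of that range. On it the second control array was low, which on its slide gave a difference of 2.56 where the others gave 1.32 and 1.26. APAF1, the scaffold that cytochrome c activates, gave -0.08 (8.67, 8.29 and 7.80 in control, 8.27, 8.39 and 7.86 in t(1;14), 8.41, 7.87 and 8.05 in oligospermic testis), with overlapping groups.

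MCL1, a restrainer of BAX, is read by 6 probes that went both ways. The brightest read 12.20, 12.21 and 11.97 in control, 12.96, 12.91 and 12.97 in t(1;14) and 12.17, 12.10 and 12.02 in oligospermic testis. It rose by 0.82 (SE 0.11, limma adjusted p 0.00032), and a second probe rose by 0.60 (adjusted p 0.00104). A further pair of probes, which share 57 of their 60 bases, fell by 1.48 and 1.42 (adjusted p 7.1e-05 and 0.00032). On the first of these the control arrays read 11.96, 12.51 and 12.14, the oligospermic arrays 12.13, 12.20 and 12.28 and the t(1;14) arrays 10.76, 10.67 and 10.74. The last 2 probes gave 0.23 and -0.46, not past the test. The first falling probe and the probe at -0.46 are shown, so that the letters behind the reading opposite to the brightest probe can be searched:
MCL1 falling probe: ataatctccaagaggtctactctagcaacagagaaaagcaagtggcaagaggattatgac
MCL1 probe not past the test: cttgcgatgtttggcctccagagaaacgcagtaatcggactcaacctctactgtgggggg
Both signs were also seen on spots under accessions: one that shares 52 bases with the brightest probe rose by 0.82 (adjusted p 0.00044), and one that shares 44 with the falling probe fell by 1.29 (adjusted p 0.00032). Whether the 2 signs come from different transcripts was not tested.

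**Figure D3:**
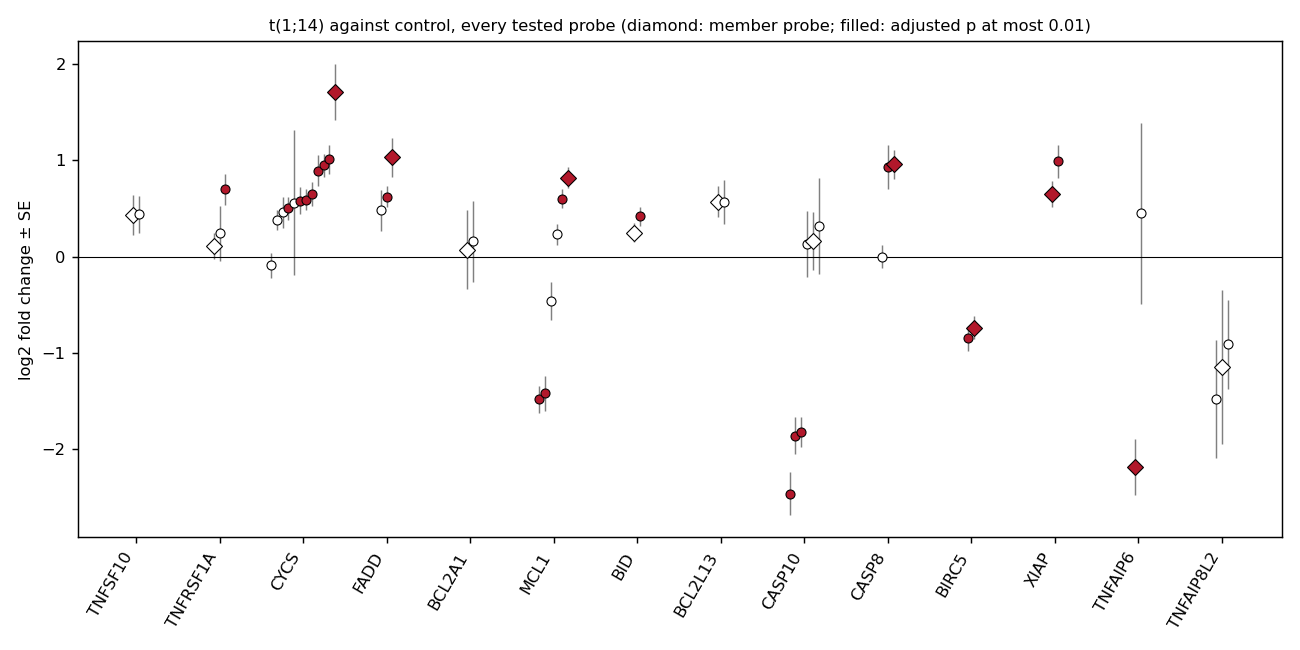
Log2 fold change of t(1;14) against control with its SE for every tested probe of the 14 genes that have more than 1. Diamonds are the probes used for the gene and filled symbols have an adjusted p of at most 0.01. MCL1 has filled symbols on both sides of 0, CASP10 has 3 filled probes near -2 and 3 open ones near 0, and CYCS has 8 filled probes above 0.

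BCL2L1 (BCL-XL, another restrainer) read 4.51, 4.26 and 3.97 in control, with 2 arrays well above background, and 3.47, 2.56 and 3.41 in t(1;14), with none. It fell by 1.10 (SE 0.25, limma adjusted p 0.00601), at least 1.56-fold lower. The call is close to the limit: with slide as a block the adjusted p was 0.0138. The 3 other spots with the same 60 bases gave -1.03, -0.41 and -1.01, of which the first and the third were past the test (adjusted p 0.00185 and 0.0011). On these 2 spots no t(1;14) array was well above background, so that they were at least 1.47-fold and 1.39-fold lower.

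BAX, which opens the mitochondrial membrane, read 5.92, 5.49 and 6.02 in control, 5.12, 5.35 and 5.16 in t(1;14) and 5.84, 5.39 and 5.38 in oligospermic testis. Control and t(1;14) arrays did not overlap. On the probe with its name the log2 fold change of -0.60 (SE 0.18) was not past the test (limma adjusted p 0.0222). The same 60 bases are carried by 5 further spots. They gave -0.88, -0.68, -0.75, -0.75 and -0.92, of which the first, second and last were past the test (adjusted p 0.00479, 0.00318 and 0.00069). All 6 spots read lower in t(1;14), and 3 of them reached the limit. BID, which carries the signal of caspase 8 to the mitochondria, gave 0.25 on its brightest probe (adjusted p 0.0631) and rose by 0.42 on its other probe (adjusted p 0.00762). Against the oligospermic boar both BID probes rose, by 0.47 and 0.65 (adjusted p 0.00424 and 0.00072).

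BCL2L13 also rose against the oligospermic boar, by 0.86 on its brightest probe (limma adjusted p 0.00201), and gave 0.57 against control (adjusted p 0.0158). Its second probe gave 0.40 against the oligospermic boar and was not past the test (adjusted p 0.165). BCL2L11 (BIM, a trigger of the intrinsic route) read 4.56, 4.55 and 5.06 in control and 5.32, 5.16 and 5.28 in oligospermic testis. All oligospermic arrays were higher, and the difference of 0.53 (SE 0.15) was not past the test (adjusted p 0.182). Its spots with the same 60 bases under accessions gave 0.48 and 0.70 in the same comparison, neither past the test. In t(1;14) it gave 0.10 against control and its spots under accessions gave -0.06 and -0.17, none past the test. Against the oligospermic boar it gave -0.43, not past the test (adjusted p 0.0407), and its spots under accessions gave -0.54 and -0.87 (adjusted p 0.0173 and 0.00303), of which the latter was past it.

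The inflammatory caspases 1 and 4 gave 0.56 and 0.34 in t(1;14) against control, neither past the test.

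The 2 inhibitors of apoptosis went opposite ways, and XIAP lies on chromosome X in RefSeq. XIAP, which blocks active caspases, read 7.52, 7.49 and 7.61 in control, 8.27, 8.30 and 8.02 in t(1;14) and 7.73, 7.40 and 7.65 in oligospermic testis. It rose by 0.65 (SE 0.13, limma adjusted p 0.00282), and a second probe rose by 0.99 (adjusted p 0.00134). BIRC5 (survivin, a protein of dividing cells that works in chromosome segregation) read 14.31, 14.17 and 13.95 in control, 13.38, 13.49 and 13.33 in t(1;14) and 14.48, 14.41 and 14.41 in oligospermic testis. It fell by 0.74 (SE 0.12, adjusted p 0.0009) against control and by 1.04 (adjusted p 0.00014) against oligospermic testis, and both its probes fell. A spot with the same sequence fell by 0.73 (adjusted p 0.00264).

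The TNF-induced proteins held one gene that rose and one that fell in t(1;14). TNFAIP3 (A20), which shuts down NF-kappaB signalling after TNF, read 5.46, 5.95 and 5.64 in t(1;14). In control it read 3.97, 3.57 and 3.37 with 1 array well above background, and in oligospermic testis 3.62, 2.56 and 3.08 with none. It rose by 2.05 (SE 0.28, limma adjusted p 0.00043) against control, and was at least 3.97-fold higher than in oligospermic testis (log2 fold change 2.60, adjusted p 0.00011). With the dim control arrays raised to the lowest signal well above background, where that is higher, the difference from control was 1.91, under the fold limit. Within slides the differences from control were 1.99, 2.07 and 2.08. A second spot with the same 60 bases, with no control array well above background, was at least 4.19-fold higher (log2 fold change 2.27, adjusted p 0.00083).

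TNFAIP6 (TSG-6, a secreted protein that binds hyaluronan) read 6.56, 6.94 and 5.90 in control, 6.22, 5.88 and 6.33 in oligospermic and 4.63, 3.87 and 4.36 in t(1;14) testis. It fell by 2.18 (SE 0.29, limma adjusted p 0.0004) against control and by 1.86 (adjusted p 0.00083) against oligospermic testis. The second TNFAIP6 probe did not follow: it read 4.27, 4.94 and 4.46 in t(1;14), 1.90, 2.79 and 1.93 in oligospermic testis and 2.74, 2.86 and 6.73 in control, where only the third control array was well above background. Its log2 fold change was 0.45 (adjusted p 0.711). Another pair of spots, under accessions and sharing 54 bases with that second probe, gave 0.96 and 1.93 (adjusted p 0.0139 and 0.0109), and the first of them rose by 1.11 against oligospermic testis (adjusted p 0.00654). The direction given for TNFAIP6 thus holds for the rule's probe only.

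TNFAIP8L2 (TIPE2, a brake on immune cells) shows what 1 array can do here. It read 4.75, 8.16 and 8.23 in control, 6.05, 5.75 and 5.88 in t(1;14) and 7.83, 7.91 and 8.06 in oligospermic testis. The first control array was far below the others, and the other 2 of its 3 probes had the same low array (5.22 against 7.75 and 7.89, and 3.46 against 5.26 and 5.44). With all arrays the log2 fold change of t(1;14) was -1.15 against control (limma adjusted p 0.256) and -2.04 against oligospermic testis (adjusted p 0.056). Without the first control array it was -2.29 and -2.04 (adjusted p 2.63e-05 and 1.46e-05), differential in both. The t(1;14) and oligospermic arrays did not overlap and neither group holds that array. The error is pooled over all 3 groups. Normalization, filter and adjustment were also redone without that array, and their parts in the change were not tested. Fitted on the 6 t(1;14) and oligospermic arrays alone the second comparison was -2.03 (limma adjusted p 3.35e-05).

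There were 5 members with an SD over 0.9 among the control arrays (BCL2A1, CASP1, TNFAIP1, TNFAIP8L2 and TNFRSF11B), where 4.71% of all probes did. TNFAIP1 read 11.41, 10.09 and 9.07 in control, against 10.28, 10.23 and 10.34 in t(1;14) and 9.39, 9.27 and 9.38 in oligospermic testis. BCL2A1 read 6.25, 7.19 and 8.23 in control, against 7.44, 7.08 and 7.37 in t(1;14). For TNFAIP1 and BCL2A1 the control arrays spanned the levels of both other groups. TNFAIP8L2 was also among the 5 members whose lowest array was on the first slide in all 3 groups (with CASP10, CASP4, TNF and TNFSF12), near the 14.4% of all probes that did.

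**Figure D4:**
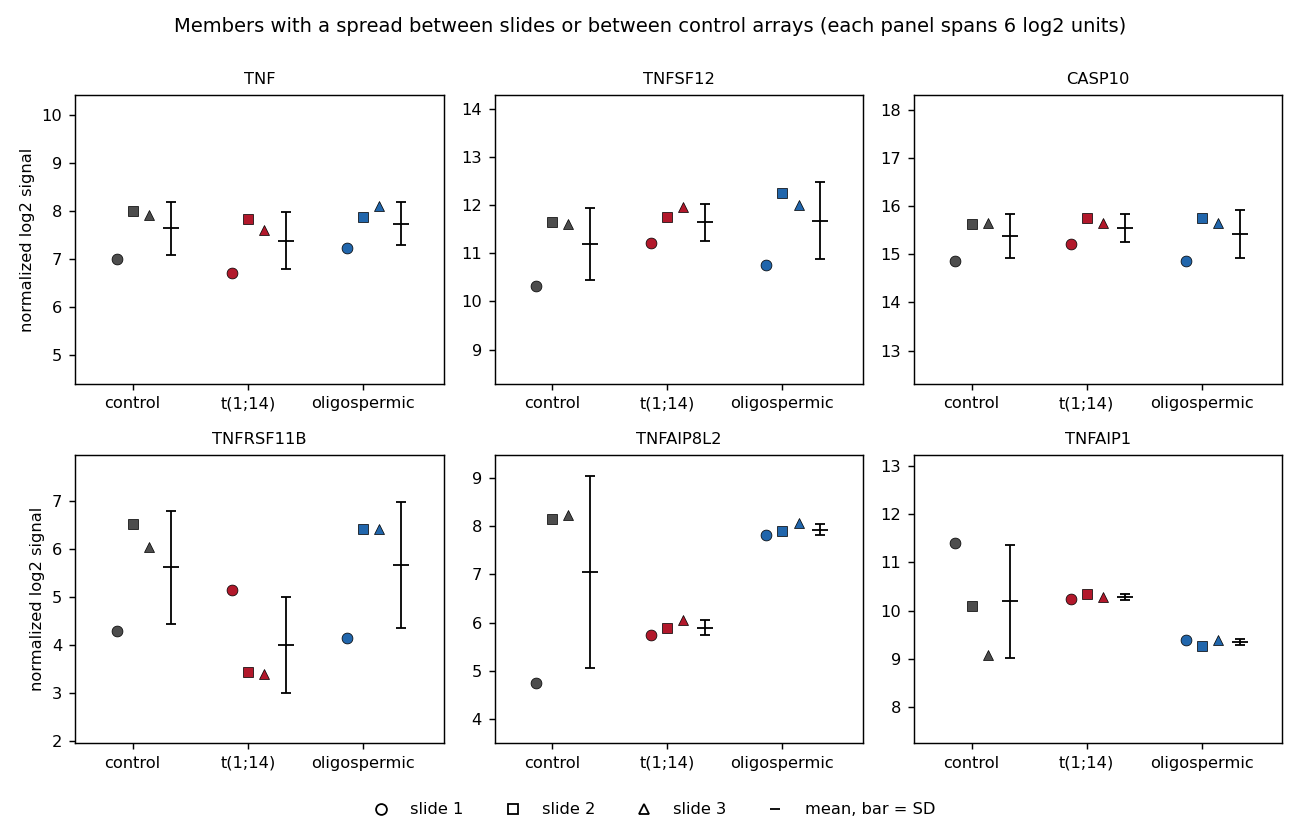
Normalized log2 signal by array for 6 members, with the slide as symbol and the mean and SD beside each group; each panel has its own scale of equal span. The first slide (circles) is lowest in every group for TNF, TNFSF12 and CASP10, and the control arrays are spread widely for TNFRSF11B, TNFAIP8L2 and TNFAIP1.

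Genes that work beside these members under other names were read from 6 lists. Of 74 listed genes 32 had a tested probe by name. In t(1;14) against control 12 of the 32 were past the test (37.5%, against 38.5% of all probes), 10 higher and 2 lower. Below the receptors, NFKBIA rose by 1.17 and NFKBIB by 0.50, both inhibitors of NF-kappaB, and RIPK3, a kinase of necroptosis, rose by 1.41. CHUK, a kinase that releases NF-kappaB, fell by 0.95, and 8 of the 12 genes of that list were not past the test. CD40, a receptor of the TNF family, rose by 1.43 as the only one of 3.

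Of 5 genes listed for growth arrest after DNA damage, CDKN1A rose by 1.55 and GADD45G by 1.89, and 3 were not past the test. BNIP3L rose by 0.72 (1 of 4), and API5 and PDCD4 rose by 0.60 and 0.71 (2 of 4 genes of mitochondrial release and execution). Of the cytotoxic granule, GZMA rose by 1.53, GZMB fell by 1.67, and GZMH and GZMK (-0.21 and 0.23) were not past the test. In oligospermic against control testis limma placed 0 of the 32 past the test, where 0.224% of all probes were. In t(1;14) against oligospermic testis 13 were (40.6%, against 42.7% of all probes), and GADD45G was differential, at 8.11, 8.43 and 8.20 in t(1;14) against 6.38, 6.02 and 5.87 (log2 fold change 2.15, limma adjusted p 8.0e-05).

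Markers of the cells in the biopsy were read on the same arrays. The counts below are for t(1;14) against control, where 20.0% of all probes were past the test and higher and 18.5% lower. Mean log2 signal over 8 spermatid markers ranged from 11.71 to 11.81 on the t(1;14) arrays, against 13.25 to 13.44 in control and 13.29 to 13.39 in oligospermic testis, and 6 of the 8 fell. Among the 8, PRM2 was saturated on 3 control, 1 t(1;14) and 3 oligospermic arrays and TNP2 on 1 control and 3 oligospermic arrays, so their levels there are lower limits. Over 8 Leydig cell markers it ranged from 11.59 to 11.67 in t(1;14), 9.84 to 10.05 in control and 9.93 to 10.26 in oligospermic testis, and 6 of the 8 rose. INSL3, one of the 8, was saturated on 2 t(1;14) arrays and 1 oligospermic array. Over 4 macrophage markers t(1;14) ranged from 7.32 to 7.60 and control from 6.46 to 7.01, and CD14 alone rose. The T and NK cell list had a probe for 3 of its 11 genes, without CD3D, CD3E or CD8A, with ranges of 6.37 to 6.84 in t(1;14), 6.28 to 7.53 in control and 6.46 to 6.82 in oligospermic testis, and none was past the test. Of the other lists, 2 of 2 spermatogonium markers rose, of 3 spermatocyte markers 1 rose and 1 fell, of 9 Sertoli cell markers 1 rose and 2 fell, of 8 peritubular and vascular markers 2 rose and 1 fell, and no B cell marker had a probe. In oligospermic against control testis SPO11, a spermatocyte marker, fell and no other marker was past the test. The part of cell composition in the values of FASLG and of the other members was not tested.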

How the data were processed

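Testicular RNA was hybridized to 9 single-colour 60K porcine arrays. The deposited scanner files hold Feature Extraction intensity values, with background subtracted within each array, per the file headers. A second deposited table by the authors holds log2 values that share 1 distribution over the 9 arrays, as quantile normalization gives, which chose the probe of each gene and served as an alternative. The members and lists were chosen with earlier results of these data known.

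The log2 of the processed intensity was brought to a common distribution over the 9 arrays by quantile normalization. Probes well above background without outlier flags on at least 2 of 3 arrays of a group were kept. A single limma model (version 3.58.1, R 4.3.3) gave 3 comparisons with Benjamini-Hochberg adjustment. The study's thresholds were used, an adjusted p of 0.01 and a log2 fold change of 2. A fit of each comparison's 6 arrays alone was an alternative, with other scalings, filters, blocks and left-out arrays. On simulated data with 200 probes changed by a log2 of 3, 85.5% were recovered in t(1;14) against control, 90.5% in oligospermic against control and 86.5% in t(1;14) against oligospermic testis. The simulated noise was independent, with the same SD in all groups for a probe and no slide effect, unlike these arrays.

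A bound ("at least") sets the brighter group's mean against the higher of the dim probe's signal and the lowest signal well above background on each array. Slides were read from the file headers. Same-slide arrays deviated together from their group means (correlations 0.1007 to 0.4892). Replicate numbers equal the slide numbers in control and oligospermic testis, where they pair the arrays, and not in t(1;14), where their correlations ran from -0.421 to 0.1391. The labels do not say that numbers mark a shared batch. Precision is limited by 3 arrays a group.

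Named were FASLG and core pathway genes, every differential member, the 10 largest changes past the test in each comparison, differential genes of the lists, and genes whose probes disagree. TNFAIP8L2, the genes with a wide spread, list genes past the test but not differential, and the spots sharing a 20-base run with a member's probe were added after values were seen. RefSeq (Sscrofa11.1) named 62 of 84 probes by accession and 21 by symbol. No genome was used, so probes were not placed on transcripts. Results for some list and family members are not reported here.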

Additional observations from a re-analysis of the deposited data

How the results depend on the processing

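Dropping or changing arrays, scaling and error model left FASLG lower in t(1;14) in every alternative that tested it. Its log2 fold change without 1 array ranged from -4.2485 to -3.7268 against control, from -3.4097 to -3.2424 against oligospermic testis and from -0.9388 to -0.4079 for oligospermic against control. With a normexp background and an offset of 50, which shrinks dim probes by construction, it was -1.2031 and -0.8264 in the 2 comparisons with t(1;14), still past the adjusted p but under the fold limit, and differential members went to 0 in both, while differential probes overall fell from 2392 to 1006 and from 2683 to 1088. A filter asking for signal in every group removed FASLG and TNFAIP3 and left 2 differential members against control and 1 against oligospermic testis. At a log2 fold change of 1 there were 8 in each.

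Differential members without 1 array ranged from 2 to 5 against control and from 3 to 4 against oligospermic testis, and members past the test from 9 to 13 and from 10 to 15; for oligospermic against control both counts were 0 throughout. The 2 came without t(1;14) array 2, where TNFAIP3 was 1.9312 and TNFAIP6 -1.9798, just under the limit, and TNFRSF12A lost and TNFSF13B gained the differential call against oligospermic testis; TNFAIP6 also lost it against control without control array 2 (-1.9434) and TNFAIP3 without control array 3 (1.9154). The 5 came without control array 1, which added TNFAIP8L2. With the replicate block, differential members were 4, 0 and 3 and members past the test 12, 0 and 11 in t(1;14) against control, oligospermic against control and t(1;14) against oligospermic testis. With slide, which pairs the arrays, as a block they were 4, 0 and 3 and 12, 0 and 13. BCL2L1 lost its call against control with slide, so these 12 are not all the members called without a block. FASLG stayed past the test in both t(1;14) comparisons (adjusted p 0.000128 and 0.000115 with the replicate block, 7.25e-05 and 0.000112 with slide); a block leaves the fold changes of this balanced design as they are. Fitted on 6 arrays alone, 18 members were past the test in t(1;14) against oligospermic testis, where 13 were with all arrays, and probes past the test rose from 17553 of 41105 to 19934 of 40567. On the second brightest probe of the 13 genes that have one in the deposited value table, 8 were past the test against control and 7 against oligospermic testis, beside 38.5% and 42.7% of all probes; no differential member is among the 13.

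In t(1;14) against control the sign turned for TNF without t(1;14) array 2 (0.0818, range -0.5663 to 0.0818 without 1 array). It turned for APAF1 without control array 1 (0.1315) or t(1;14) array 3 (0.0811, range -0.3021 to 0.1315 without 1 array), and for MCL1 on its second brightest probe (-1.4244). Without control array 1 CASP10 (0.16 to -0.10) and BCL2A1 (0.07 to -0.41) also turned. In oligospermic against control TNFAIP8L2 (0.89 to -0.26), BCL2A1 (0.46 to -0.03), TNF (0.10 to -0.21), CASP10 (0.04 to -0.22) and TNFRSF11B (0.04 to -0.62) turned without that array, none past the test. Signs of other members are not reported here. The fall of BCL2L1 lost its call in 10 alternatives (adjusted p 0.0102 to 0.0851), XIAP without t(1;14) array 1 or 2 (0.0136 and 0.0125), TNFSF13B without control array 2 or t(1;14) array 1 (0.0127 and 0.0120), and FADD without t(1;14) array 1 or 3 (0.0101 and 0.0106). BCL2L13 gained it in 4, and BAX without control array 2 (-0.7660, adjusted p 0.00772). The cause was not tested. Dim probes limit FASLG, TNFAIP3, BCL2L1, CASP1 and TNFRSF11B, where a group had no array or 1 array well above background.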
